A study of Mus musculus with 27 samples.

Results

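Injured dorsal root ganglia of Ptpn2 knockout mice were compared with injured ganglia of wild-type mice given RU521, an inhibitor of the DNA sensor cGAS. The libraries were taken by their labels: 3 of knockout ganglia and 3 of RU521-treated ganglia, 6 of the 15 ganglion libraries and of the 27 libraries in the series. The comparison itself was chosen with earlier results of these data known. The series text sets out to learn what loss of Ptpn2 and interferon-γ do to axon regrowth, and these 2 groups were picked as the ones expected at opposite ends of interferon signalling after injury.

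Both groups had a sciatic nerve injury and were collected 3 days later. The knockout group carried the Ptpn2 knockout genotype and received no drug according to the labels. The RU521 group was wild type and had RU521 injected into the sciatic nerve. The groups therefore differ in genotype and in drug at once, and the contribution of each cannot be told apart in this comparison. The other ganglion groups, 3 libraries each, served as reference: wild type with sham surgery, wild type injured without drug, and knockout with sham surgery. The labels call the tissue L4-L5 ganglion, while the design text mentions collecting nerve. The uninjured controls are intact in the titles and sham-operated in the treatment field. The labels name no Cre driver for the ganglia, no vehicle control, and neither sex nor age, and nothing says that the 3 libraries of a group came from separate animals, so p-values measure only the spread between these libraries, which may be technical.

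PTPN2 is a phosphatase that removes phosphate from JAK kinases and STAT proteins, and so shortens the response to interferons. Interferon binding activates these kinases, phosphorylated STAT proteins move to the nucleus, and genes for guanylate-binding proteins, immunity-related GTPases, antigen presentation and chemokines are transcribed. cGAS detects DNA in the cytosol and, through STING, leads to type I interferon. A sensory neuron whose axon is cut switches on a regeneration programme led by ATF3 and lowers many transmitter, receptor and channel genes.

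The 15 libraries held 14813365 to 22414750 counts each, and the 6 compared here 15517976 to 16914909. Neuronal genes checked the labelled tissue: Tubb3, a neuronal tubulin, was at 1498, 1213 and 1311 CPM (counts scaled to library size and composition) in the knockout and 1934, 1168 and 1834 CPM in the RU521 group, and the groups overlapped. The targeted gene, Ptpn2, gave 24.1, 26.5 and 18.5 CPM in injured knockout, 15.4, 18.1 and 14 CPM with RU521, 15.9, 19.8 and 17.5 CPM in untreated injured wild type, 15.8, 12.1 and 10.5 CPM in sham knockout and 11.6, 19.3 and 12.9 CPM in sham wild type. All 3 injured knockout libraries were above the RU521 libraries, and the difference did not pass the test in edgeR (log2 fold change 0.54 ± 0.22, adjusted p = 0.128). Limma-voom, an alternative, called it higher in the knockout (0.59, adjusted p = 0.0111). The counts sum all exons and the labels do not say which exons were removed, so these values check nothing about the deletion.

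Some libraries stood apart in ways that touch the results. The X-inactivation transcript Xist read 69.8, 93.3 and 81.1 CPM in injured knockout and 0.357, 1.07 and 0.25 CPM with RU521, and the Y-linked helicase gene Ddx3y read 12, 5.22 and 15.2 CPM and 75.6, 69.6 and 74.6 CPM. Female transcripts thus dominated the knockout and male transcripts the RU521 group, with both present in the knockout libraries, so the sex of the animals cannot be told apart from the groups. The counts ignored strand, so Xist reads and reads of its antisense partner are summed where they overlap. Of 575 tested genes on the X chromosome, 24 were higher and 48 lower in the knockout, where 5.87% of all tested genes were higher and 6% lower, and of 7 on the Y chromosome 1 was lower. RU521 library 1 had the fewest detected genes of the 6 (28803, against 30253 to 32856 in the others) and the lowest share of mitochondrial counts (7.83%, against 11.3% to 17.1%). It also read lowest of the 6 for the injury gene Atf3. Knockout library 1 read highest for many interferon genes.

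Against that background, 2198 of 18517 tested genes (11.9%) differed between the groups at an adjusted p under 0.05 (edgeR). Differences are log2 fold changes, knockout over RU521 unless another pair is named, ± the standard error (SE) of the fit, and CPM values follow libraries 1, 2 and 3 of a group. Of these genes, 1087 (5.87%) were higher in the injured knockout and 1111 (6%) were higher with RU521, and in 1073 (5.79% of tested genes) and 1046 (5.65%) of them the libraries of the groups did not overlap. Increases were the larger changes: the median called log2 fold change was 1.22 upward and -1.03 downward. At least 4-fold differences numbered 286 higher and 95 lower, and at least 16-fold ones 59 and 5. Leaving out 1 library changed the counts to between 577 and 1341 higher and between 462 and 1755 lower, with the fewest higher calls without RU521 library 3 and the fewest lower calls without RU521 library 1. Without knockout library 1 the counts were 660 and 697, without knockout library 2 they were 639 and 490, without knockout library 3 they were 754 and 633, and without RU521 library 2 they were 1341 and 1755.

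**Figure D1:**
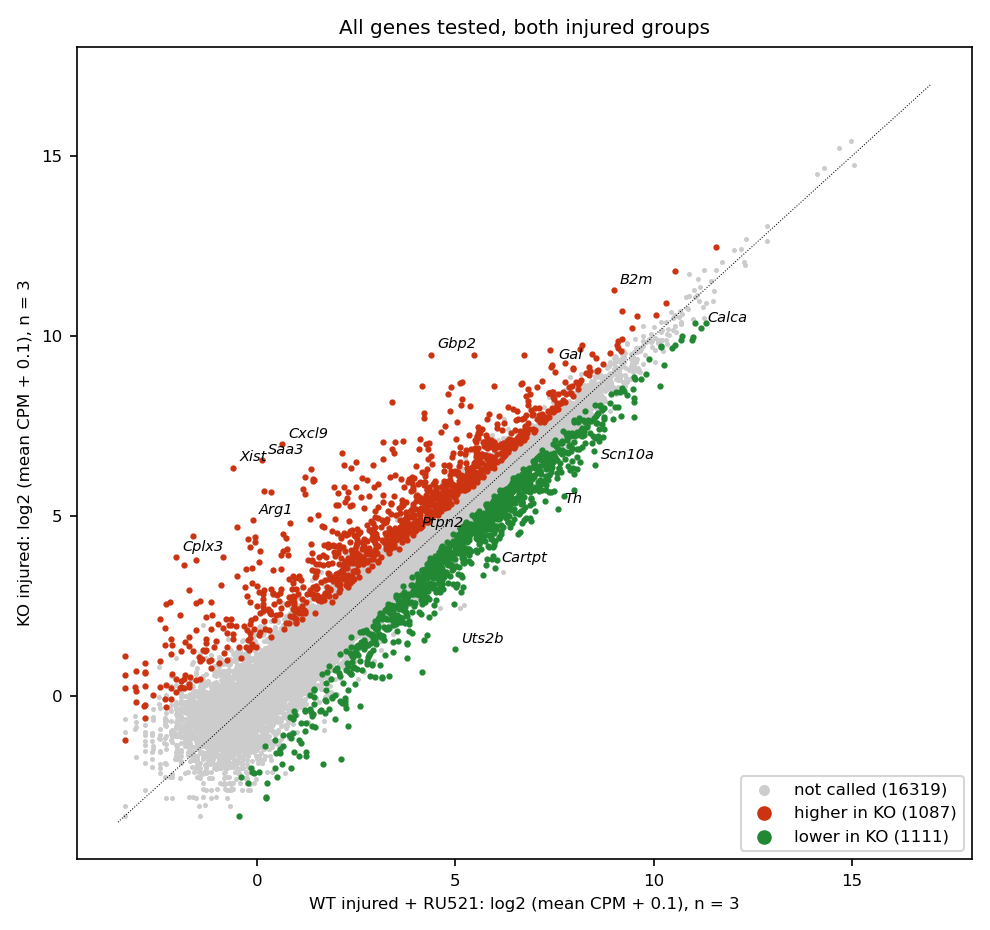
Mean level of each tested gene in the 3 RU521 libraries (x axis) and the 3 injured knockout libraries (y axis), both as log2 CPM, with called genes in colour and the dotted line marking equal levels. The 1087 genes above the line reach farther from it than the 1111 below, with Gbp2, Saa3 and Cxcl9 far above and Uts2b, Cartpt and Th below.

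The list with the highest median was that of the guanylate-binding proteins, interferon-induced GTPases that attack the vacuoles of intracellular pathogens. All 11 tested members were higher in the knockout, where 5.87% of all tested genes were, with a median log2 fold change of 4.63 against 0.01 over all genes tested. Gbp2 read 577, 829 and 736 CPM in the knockout and 15.6, 28.4 and 18.2 CPM with RU521, a log2 fold change of 5.10 ± 0.25 with adjusted p = 8.49e-09. The lowest knockout library stood at 577 CPM and the highest RU521 library at 28.4 CPM. Gbp2 lies at chr3:142620602-142638008 (GRCm38).

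Untreated injured wild type had 33, 34.8 and 32.1 CPM of Gbp2, sham wild type 22.6, 31.7 and 24.1 CPM and sham knockout 26.9, 39.8 and 35.6 CPM, so the injured knockout stood alone among the 5 groups. Gbp7 read 299.9, 272 and 236 CPM against 31.3, 40.4 and 34.8 CPM (2.92 ± 0.17). Gbp3 read 443, 373 and 324 CPM against 17.2, 43 and 28 CPM (3.69 ± 0.30). The groups did not overlap for either gene, nor for Gbp4, Gbp6 and Gbp9, whose log2 fold changes were 4.63, 4.95 and 4.03.

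Gbp10 and Gbp2b were among the 12 largest increases of the whole table. Gbp10 rose from 0.119, 0.126 and 0.438 CPM with RU521 to 24, 22.7 and 18 CPM (6.53 ± 0.64), and Gbp2b from 0.297, 0 and 0.0626 CPM to 6.45, 5.69 and 6.08 CPM (5.55 ± 0.75). The RU521 libraries held 11 counts of Gbp10 in all, which makes that fold imprecise, and the fitted value became 7.38 without RU521 library 3. For Gbp2b it became 7.29 without RU521 library 1. Members of this family resemble each other in sequence, and Gbp4, Gbp8 and Gbp9 share 60 to 61 exonic bases pairwise in the annotation, so reads may have been split or dropped between them.

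The immunity-related GTPases, another interferon-induced family that marks and breaks pathogen vacuoles, had the next highest median. Of 11 tested members 9 were higher, where 5.87% of all tested genes were, and none lower. The median log2 fold change was 4.04. Igtp, also called IRGM3, read 465, 446 and 360.4 CPM in the knockout and 31.1, 40.4 and 37 CPM with RU521 (3.55 ± 0.16, adjusted p = 2.55e-09), and the groups lay far apart. Irgm1 read 157, 131 and 108 CPM against 6.95, 11 and 8.95 CPM (3.88 ± 0.21).

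Tgtp1 read 62, 50.2 and 39.4 CPM against 1.19, 1.32 and 1.06 CPM (5.40 ± 0.36), and Irgm2 197, 151 and 138 CPM against 20.7, 31.6 and 22.5 CPM (2.70 ± 0.27). Iigp1 rose by 4.79 and Gm4951 by 4.65 on the log2 scale. Igtp and Irgm2 share 162 exonic bases, and Tgtp1 and Tgtp2 are near-identical copies, so their separate values are uncertain. The members that did not pass were 9930111J21Rik1 and 9930111J21Rik2, at 1.48 and 0.90.

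Promoter sequences of the member with the lowest p in each of 3 lists are shown because these families moved together and interferon factors bind known motifs. The windows are the 250 bases before the RefSeq start, on the gene's strand, build GRCm38.p6. Capitals mark matches to the core of the interferon-stimulated response element, which is GAAA, any 2 bases and GAAA again (TTTC in place of GAAA on the other strand), and to TTCNNNGAA, the gamma-activated site, searched on both strands. The Gbp2 window is chr3:142620413-142620662, plus strand, the Igtp window chr11:58199306-58199555, plus strand, and the Ifit3 window chr19:34583279-34583528, plus strand.
Gbp2: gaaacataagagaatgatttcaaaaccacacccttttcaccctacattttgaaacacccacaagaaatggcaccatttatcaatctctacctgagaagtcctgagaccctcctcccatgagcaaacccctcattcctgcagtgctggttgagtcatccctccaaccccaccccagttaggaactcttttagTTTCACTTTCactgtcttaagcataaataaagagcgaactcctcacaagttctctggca
Igtp: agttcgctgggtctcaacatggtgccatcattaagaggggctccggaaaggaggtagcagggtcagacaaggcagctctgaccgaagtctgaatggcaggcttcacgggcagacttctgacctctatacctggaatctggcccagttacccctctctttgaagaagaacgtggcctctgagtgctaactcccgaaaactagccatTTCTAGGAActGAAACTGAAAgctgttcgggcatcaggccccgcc
Ifit3: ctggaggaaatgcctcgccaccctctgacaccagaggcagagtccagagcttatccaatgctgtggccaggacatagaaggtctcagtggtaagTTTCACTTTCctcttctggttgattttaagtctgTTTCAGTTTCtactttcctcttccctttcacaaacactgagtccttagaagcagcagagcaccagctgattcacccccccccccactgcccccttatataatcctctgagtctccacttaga
Gbp2 held 1 response element match, beginning 59 bases before the start, and Ifit3 held 2, at 156 and 122 bases. Igtp held 1 response element match at 34 bases and 1 gamma-activated site match at 45 bases, without overlap. The window of Il18bp, taken by the same rule from the chemokine and cytokine list, held neither run of letters.

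Over all 32851 RefSeq promoter windows, each from 250 bases before to 50 after the start, 3.44% held the response element core and 8.3% TTCNNNGAA, and over those of tested genes 3.23% and 7.02%. Matches to the response element core stood in 5 of 6 windows of guanylate-binding proteins (5 of 11 genes matched the table) and in 6 of 8 of immunity-related GTPases (8 of 11 genes). They stood in 13 of 26 windows of type I interferon-stimulated genes and 5 of 19 of class I genes, but in 1 of 14 of chemokines and cytokines, 0 of 8 of complement genes and 0 of 5 of class II genes. Genes called higher in the knockout had it in 10.2% of windows, those higher by a log2 fold change of 3 or more in 40%, and those called lower in 3.07%. For TTCNNNGAA the shares were 9.99%, 17.5% and 5.26%. A match is a run of letters and no evidence of binding.

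Genes of the JAK-STAT pathway itself differed less evenly: 11 of 23 tested were higher in the knockout, against 5.87% of all tested genes. None were lower, and the median was 0.55. Without knockout library 1 the count was 7. Among transcription factors, Irf1, which activates interferon genes, read 67.8, 55.8 and 60.9 CPM in the knockout and 12.2, 22.5 and 21.1 CPM with RU521 (1.72 ± 0.21, adjusted p = 0.000139), without overlap. Its level was 18.9, 27.2 and 24.6 CPM in untreated injured wild type, 16.6, 18.4 and 17.8 CPM in sham wild type and 24.2, 17.6 and 19.8 CPM in sham knockout, all below the injured knockout libraries.

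Irf9, a partner of STAT2, read 98.7, 63.8 and 65.4 CPM against 22.6, 39.3 and 27.4 CPM (1.35 ± 0.20). Stat2 was higher by 1.03 ± 0.30. Stat3, which relays IL-6 family signals, did not pass the test, at 0.09 ± 0.20 and 386, 348 and 365 CPM against 393, 290.1 and 350.2 CPM.

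Among genes of the list that restrain the pathway, Ptpn2 did not pass, as given above, and 4 called ones are named here, some after their values were seen. Socs1, which blocks JAK kinases, read 21, 16.7 and 17.5 CPM in the knockout and 4.58, 3.53 and 4.25 CPM with RU521 (2.16 ± 0.31). Usp18, which removes ISG15 and shuts the type I receptor, read 259, 73.1 and 64.6 CPM against 9.57, 14.6 and 9.01 CPM (3.58 ± 0.43), and without knockout library 1 its value was 2.62. Socs3 rose by 1.53 ± 0.28 and Ptpn1, the closest relative of Ptpn2, by 0.86 ± 0.15.

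Of the receptors, Ifngr1 was higher by 0.63 ± 0.18 (adjusted p = 0.0341) and Ifnar2 by 0.55 ± 0.16 (adjusted p = 0.0332). Ifngr2 was at -0.14, Ifnar1 at 0.37, Jak1 at -0.28 and Jak2 at 0.52, none past the threshold. The interferon genes Ifng and Ifnb1 had too few counts to be tested, so no difference in them was detectable at this depth.

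In the cGAS-STING pathway, 5 of 10 tested genes were higher in the knockout, against 5.87% of all tested genes, and none lower (median 1.04). Cgas, the enzyme that RU521 inhibits, read 4.07, 4.22 and 6.81 CPM in the knockout and 1.37, 1.77 and 0.375 CPM with RU521 (2.10 ± 0.47, adjusted p = 0.00966). The ranges did not overlap, and untreated injured wild type had 1.89, 2.76 and 1.81 CPM. Sting1, the adaptor downstream of cGAS, read 47.2, 37.5 and 37.2 CPM against 9.27, 12.4 and 9.51 CPM (1.97 ± 0.20).

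Irf7, which amplifies type I interferon, read 795, 189 and 178 CPM in the knockout and 13.3, 22.4 and 17.5 CPM with RU521 (4.45 ± 0.54). Knockout library 1 was far above the others, and without it the log2 fold change was 3.35. Samhd1, a nucleotide hydrolase, read 146, 119 and 97.2 CPM against 23.6, 45.3 and 35.7 CPM (1.79 ± 0.25). The kinase gene Tbk1 and the factor Irf3 stood at -0.05 and 0.12, past no threshold. Ikbke, a kinase related to TBK1, was higher by 1.43 ± 0.40, and lost its call without knockout library 1 (1.11), knockout library 3 (1.37), RU521 library 1 (1.44) or RU521 library 3 (1.36).

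Type I interferon-stimulated genes were higher in 27 of 30 tested cases, against 5.87% of all tested genes, and none were lower. Their median was 2.45. Ifit3, which binds viral RNA with its partners, read 1148, 528 and 442 CPM in the knockout and 36, 53.8 and 44.3 CPM with RU521 (3.98 ± 0.30, adjusted p = 8.02e-07). Rtp4 read 184, 116 and 85 CPM against 16.5, 22.8 and 18.3 CPM (2.74 ± 0.24), and Zbp1, a sensor of Z-form nucleic acid that can trigger cell death, 80.2, 43.1 and 44.2 CPM against 1.96, 4.92 and 4.32 CPM (3.90 ± 0.42). In each of these genes knockout library 1 was the highest and the groups did not overlap.

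Ifi44 read 113, 38 and 39.6 CPM against 1.43, 3.91 and 2.5 CPM (4.60 ± 0.47, 3.87 without knockout library 1). Xaf1 was higher by 2.27 ± 0.24 and the ISG15 ligase gene Herc6 by 2.91 ± 0.32. Mx1, an antiviral GTPase, was higher by 4.04 ± 0.68, and Isg15, a ubiquitin-like modifier, by 2.84 ± 0.39. Oas2, Oas3 and Isg20 did not pass, at 1.65, 1.14 and 1.06.

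Genes of class I antigen presentation were higher in the knockout in 19 of 19 cases, against 5.87% of all tested genes (median 2.27). This count was 19, and that of the guanylate-binding proteins 11, in each of the 14 alternative analyses. B2m, the subunit shared by all class I heavy chains, read 3225, 2174 and 1999 CPM in the knockout and 388, 617 and 529 CPM with RU521 (2.27 ± 0.22, adjusted p = 1.69e-05). The groups were well apart, and no library of the other 3 groups reached the lowest knockout library. B2m lies at chr2:122147686-122153083.

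Tap1 and Tap2, which carry peptides into the endoplasmic reticulum, read 154, 102 and 93.7 CPM against 12.2, 18.9 and 19.3 CPM (2.80 ± 0.25) and 88.7, 59.4 and 59.7 CPM against 18.3, 18.8 and 19.7 CPM (1.87 ± 0.17). Psmb8, an immunoproteasome subunit, read 367, 291 and 255 CPM against 24.8, 47.8 and 35.8 CPM (3.07 ± 0.29). Nlrc5, the transactivator of class I genes, was higher by 2.44 ± 0.37. Psme2, part of the proteasome activator, was higher by 1.51 ± 0.15, and the heavy chain genes H2-K1, H2-D1 and H2-T22 by 2.22, 1.49 and 2.74. Tap1 shares 212 exonic bases with Psmb9 on the opposite strand, and the counts ignored strand, so their reads may be mixed. The H2 genes are near-identical copies, so the split of reads among them is uncertain.

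Class II presentation, the task of professional antigen-presenting cells, was higher in 6 of 7 tested genes (median 1.74), against 5.87% of all tested genes. The count was 3 of 7 without RU521 library 1 or without RU521 library 3. The peptide-loading genes H2-DMb1 and H2-DMa read 50.5, 55.1 and 53.8 CPM against 12.7, 14.1 and 19 CPM (1.80 ± 0.28) and 70.9, 86.4 and 72.5 CPM against 29.1, 34.9 and 31 CPM (1.28 ± 0.17). H2-Ab1 read 398, 463 and 381 CPM against 75.9, 143 and 91 CPM (2.00 ± 0.44). Groups were separate for all 3.
H2-Aa, Cd74 and H2-Eb1 were higher by 1.74, 1.71 and 1.67. Without RU521 library 1 these values were 1.55, 1.49 and 1.49, and without RU521 library 3 they were 1.71, 1.63 and 1.64, none past the threshold. H2-Eb1 also lost its call without knockout library 1 (1.62) or knockout library 2 (1.66). The class II transactivator Ciita was at 1.86 ± 0.66 and did not pass (adjusted p = 0.0819).

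**Figure D2:**
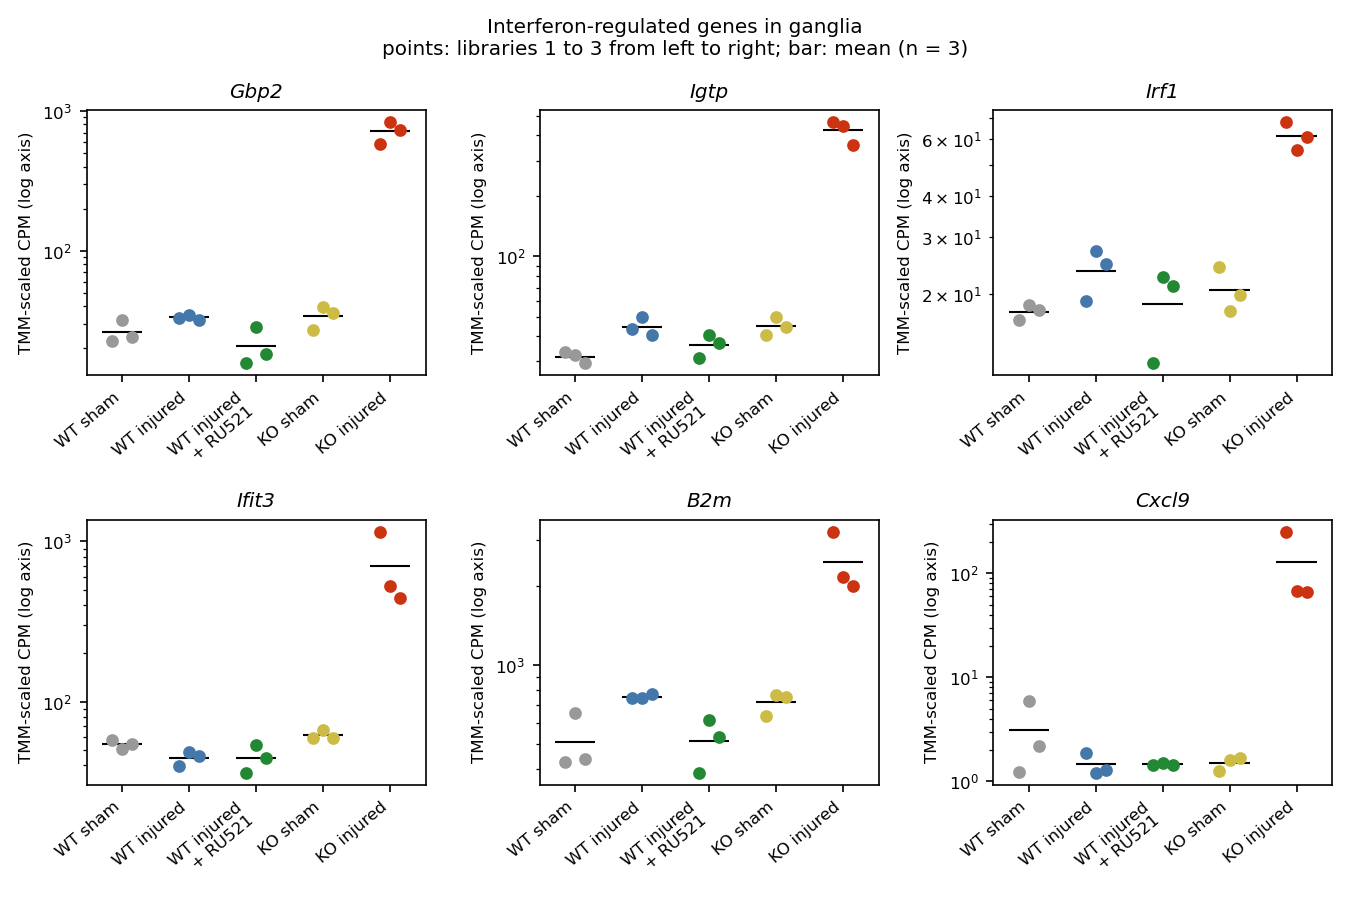
CPM on a log axis in each ganglion library of the 5 groups for Gbp2, Igtp, Irf1, Ifit3, B2m and Cxcl9, with bars at the group means. In all 6 genes the 3 injured knockout libraries lie above the 12 others; Gbp2 reads 577 to 829 CPM there.

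Chemokine and cytokine genes were higher in 14 of 19 tested cases, against 5.87% of all tested genes, and lower in none (median 2.81). Cxcl9 and Cxcl10 encode the ligands that draw CXCR3-bearing T cells. Cxcl9 read 250.5, 67.6 and 65.9 CPM in the knockout and 1.43, 1.51 and 1.44 CPM with RU521 (6.45 ± 0.62, adjusted p = 1.54e-05; 5.49 without knockout library 1). Cxcl10 read 116, 63.2 and 61.3 CPM against 4.75, 3.22 and 7.26 CPM (3.98 ± 0.32). In both, the groups were far apart and knockout library 1 was the highest.

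Ligands that recruit monocytes through CCR2 followed. Ccl2 read 58.4, 39.2 and 28.2 CPM in the knockout and 5.53, 4.41 and 3.69 CPM with RU521 (3.20 ± 0.33), and Ccl7 69.2, 53.7 and 43.4 CPM against 5.41, 7.06 and 4.19 CPM (3.32 ± 0.38). Ccl12 was higher by 3.13 ± 0.31. Il18bp, a decoy that neutralises IL-18, read 69.5, 43.9 and 34.9 CPM against 3.27, 5.04 and 3.69 CPM (3.63 ± 0.29). Il1b, Osm and Cxcl1, at 0.46, 0.32 and 2.66, did not pass, nor did Tnf at 2.81 or Lif at 2.27.

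Complement genes were higher in 11 of 13 tested cases (median 1.72), against 5.87% of all tested genes, and lower in none. C1qc, a chain of the recognition protein C1q, read 112, 155 and 143 CPM in the knockout and 18.7, 11.7 and 8.07 CPM with RU521 (3.41 ± 0.45, adjusted p = 0.000263). C1qc differed from Gbp2 and Irf1: it was at 83, 110.3 and 106 CPM in untreated injured wild type. That was close to the knockout and above the RU521 group (-2.96 ± 0.44 for RU521 against untreated injured wild type). Serping1, the C1 inhibitor, read 637, 475 and 432 CPM against 198, 163 and 183 CPM (1.5 ± 0.16).
C1ra and C1s1, the proteases of the C1 complex, were higher by 2.53 ± 0.30 and 1.64 ± 0.28. C3ar1, the receptor for C3a, was higher by 2.95 ± 0.45. Cfb, of the alternative pathway, read 7.01, 1.67 and 2.25 CPM against 0.119, 0.0631 and 0.13 CPM (5.05 ± 0.79; 4.14 without knockout library 1). C3 and C5ar1 did not pass, at 0.95 and 0.82.

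Markers of immune cells moved in part with these genes, and in bulk tissue fewer cells of a type and less RNA per cell cannot be told apart. Of 19 macrophage and microglia markers, 11 were higher in the knockout, against 5.87% of all tested genes, and none lower (median 1.21). The count was 6 without knockout library 1 or without knockout library 2, 5 without RU521 library 1 and 7 without RU521 library 3, but 18 without the low-count filter and 17 with limma-voom. Summed over the 19 markers, levels ranged from 3434 to 4165 CPM in the knockout and 1156 to 3561 CPM with RU521, ranges that overlapped.

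Ctss, a protease that trims the class II invariant chain, read 554, 317 and 300.2 CPM in the knockout and 34.5, 90.1 and 62.7 CPM with RU521 (2.65 ± 0.46, adjusted p = 0.00176). Fcgr1, the interferon-inducible high-affinity Fc receptor, read 83.8, 24.2 and 28.2 CPM against 2.56, 5.86 and 5.76 CPM (3.27 ± 0.51; 2.45 without knockout library 1), and Aif1 86.7, 67 and 50.8 CPM against 7.07, 13.9 and 9.38 CPM (2.75 ± 0.43). The groups did not overlap in these 3 genes. Cd68 was higher by 1.83 ± 0.36, Ms4a7 by 2.21 ± 0.38, and Fcer1g by 1.51 ± 0.36. Fcer1g was not called without knockout library 1 (1.35), RU521 library 1 (1.2) or RU521 library 3 (1.52).
General leukocyte and macrophage genes did not pass: Ptprc at 0.66 ± 0.43, Csf1r at 0.73 ± 0.37, Lyz2 at 0.26 ± 0.38 and Itgam at 0.97 ± 0.35. The part of cell numbers in the higher immune genes was not tested.

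T and NK cell markers were higher in 6 of 12 cases (median 1.84), against 5.87% of all tested genes. The count was 2 without knockout library 1 and 3 without RU521 library 1 or RU521 library 3. The summed level of these markers was 42.2 to 79.5 CPM in the knockout and 10.3 to 31.3 CPM with RU521. Gzmb, the granule protease of killer cells, read 10.3, 4.22 and 3.24 CPM against 0.178, 0 and 0.563 CPM (4.55 ± 0.83; 3.86 without knockout library 1 and 5.91 without RU521 library 3). Cd3g read 6.14, 2.74 and 2.71 CPM against 0.238, 0.694 and 0.626 CPM (2.89 ± 0.59). Levels were low throughout: the highest of the 6 libraries read 6.14 CPM for Cd3g and 5.13 CPM for Cd3d.
Cd3d, Cd8b1, Lck and Trbc2 were called at 3.19, 2.90, 1.29 and 2.39. Without knockout library 1 these became 2.45, 2.08, 0.98 and 2.05, none of them past the threshold. Calls were also lost without RU521 library 1 for Cd3d (2.80), Lck (1.14) and Trbc2 (2.21), and without RU521 library 3 for Cd3d (3.19), Cd8b1 (2.70) and Lck (1.23). The defining T cell gene Cd3e did not pass, at 2.63, 0.937 and 0.925 CPM against 1.07, 1.26 and 0.813 CPM.

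Neutrophil markers gave no called gene among 7 (edgeR, with 0 at an unadjusted p under 0.05, 0 by DESeq2 and 1 by limma-voom). S100a8 read 2518, 2671 and 2637 CPM in the knockout and 1136, 3486 and 2248 CPM with RU521, ranges that overlapped, with RU521 library 1 the lowest and RU521 library 2 the highest. Neither the 12 proliferation genes nor the 5 red blood cell genes gave a call in edgeR, with 0 at an unadjusted p under 0.05 and 0 by DESeq2 and limma-voom in both lists. With the detected genes covariate 1 red blood cell gene was called.

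The largest single increases included genes outside the lists. Saa3, an acute-phase apolipoprotein, read 135, 76.9 and 68.7 CPM in the knockout and 0.891, 1.07 and 1.0 CPM with RU521 (6.55 ± 0.29, adjusted p = 2.55e-09). Cplx3, a complexin of synaptic release, read 5.45, 20.9 and 17 CPM against 0.178, 0.126 and 0.13 CPM (6.58 ± 0.69). Ly6i read 45.8, 18.5 and 13.3 CPM against 0.178, 0.82 and 0.813 CPM (5.41 ± 0.81; 4.68 without knockout library 1). Outside the injured knockout no library exceeded 1.66 CPM of Saa3, 0.305 CPM of Cplx3 or 1.05 CPM of Ly6i.

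Batf2, an interferon-induced transcription factor, read 9.33, 8.1 and 5.29 CPM in the knockout and 0.178, 0.378 and 0.0626 CPM with RU521 (5.15 ± 0.60; 5.87 without RU521 library 2). Batf2, Irf7 and Il18bp share 51, 45 and 80 exonic bases with a gene on the opposite strand, which the unstranded counts cannot separate. Other named genes share more, among them H2-T22 (1003 bases), Csf1r (873), Irf1 (796), Cd274 (511) and H2-DMa (360). Rtp4 shares 296 with a gene on the same strand. Mmp3, a matrix protease, read 7.08, 19.9 and 10.5 CPM against 0.357, 0.189 and 0 CPM (6.03 ± 0.80; 6.94 without RU521 library 1). Sct, the secretin gene, rested on 1 library, with 15.6, 1.0 and 0.925 CPM against 0.0594, 0.126 and 0.13 CPM (5.73 ± 1.12). Without knockout library 1 the value for Sct was 3.12 and no longer past the threshold. Xist, the largest of the 12 increases (7.17 ± 1.60), is given above with the sex-linked genes. It lost its call without RU521 library 1 (6.93) or RU521 library 3 (6.83), and stood at 8.02 without RU521 library 2.

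On the other side of the comparison stood the genes of sensory neurons, all of whose calls were lower in the knockout. Among 22 neuropeptide and identity genes 10 were lower and none higher, where 6% of all tested genes were lower, with a median of -0.82. The count was 6 without knockout library 1, knockout library 2, RU521 library 1 or RU521 library 3, and 16 with limma-voom. Calca, which encodes the pain peptide CGRP, read 1202, 1153 and 1199 CPM in the knockout and 2517, 2189 and 2351 CPM with RU521 (-0.99 ± 0.15, adjusted p = 0.000711). The groups were far apart relative to their spread. Calca lies at chr7:114631478-114636357.

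Calca was at 1258, 851 and 951 CPM in untreated injured wild type, 2061, 1655 and 1929.9 CPM in sham wild type and 1763, 1825 and 1718 CPM in sham knockout. The injured knockout thus lay with injured wild type, and the RU521 libraries lay above all 12 others. RU521 against untreated injured wild type gave 1.21 ± 0.15 (adjusted p = 0.00055), and the knockout against it 0.22 ± 0.15 (adjusted p = 0.592). Tac1, the gene for substance P, read 119.5, 68.4 and 84.7 CPM against 340.1, 217 and 294 CPM (-1.64 ± 0.26).

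Mrgprd, which marks nonpeptidergic nociceptors, read 52.7, 43.8 and 43.8 CPM in the knockout and 277, 132 and 228 CPM with RU521 (-2.18 ± 0.38). Th, which marks low-threshold C-fibre mechanoreceptors, read 44.1, 30.8 and 34.8 CPM against 256, 132 and 191 CPM (-2.40 ± 0.36). Calcb, the second CGRP gene, read 190.2, 162 and 161 CPM against 529.9, 361 and 393 CPM (-1.32 ± 0.23). In all 3 the groups were separate, and the RU521 values spread more than the knockout values.
Runx1, a transcription factor of nonpeptidergic nociceptors, was lower at -0.88 ± 0.18. Among genes broadly expressed in sensory neurons, Isl1 at -0.47, Avil at -0.60, Prph at -0.20 and Tubb3 at -0.30 did not pass, and Rbfox3 was lower at -1.01 ± 0.26. RU521 library 1, which had the highest level of many of these genes, also had the fewest detected genes and the lowest mitochondrial share of the 6, and the part of the mitochondrial share in the result was not tested. A fit with each library's count of detected genes as a covariate was added after seeing the data. In it 13 of 22 neuropeptide and identity genes and 14 of 20 channel genes were lower in the knockout. It also called more genes over all tested, 1600 lower against 1111 in the main fit. The list counts therefore cannot show the part of detected genes in the result, which was not tested.

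Of 20 ion channel genes of sensory neurons, 10 were lower in the knockout, against 6% of all tested genes, and none higher (median -0.97). The count was 16 without the low-count filter and 16 with limma-voom. It was 7 without knockout library 1, knockout library 2 or RU521 library 1, 9 without knockout library 3 or RU521 library 3, and 14 without RU521 library 2. Scn10a and Scn11a encode the tetrodotoxin-resistant sodium channels of nociceptors. Scn10a read 100.2, 64.4 and 92.5 CPM in the knockout and 498, 208 and 397 CPM with RU521 (-2.10 ± 0.33, adjusted p = 0.000979), and Scn11a 61.2, 44.4 and 53.3 CPM against 358, 174 and 237 CPM (-2.27 ± 0.37). In both genes the lowest RU521 library was well above the highest knockout library.

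Piezo2, the channel of touch and proprioception, read 74.2, 80.7 and 68.9 CPM in the knockout and 302, 122 and 188 CPM with RU521 (-1.45 ± 0.27). Scn9a, a sodium channel required for pain, read 78.1, 106 and 105 CPM against 274, 166 and 218 CPM (-1.18 ± 0.23). RU521 library 1 was the highest of the 6 in both. Trpv1, the capsaicin receptor, was lower at -1.24 ± 0.28. Cacna1h, a T-type calcium channel, was lower at -1.55 ± 0.35 and not past the threshold without RU521 library 1 (-1.22).

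The 12 largest decreases included further neuropeptide genes. Uts2b, the gene for a urotensin-related peptide, read 3.51, 1.2 and 2.45 CPM in the knockout and 18.8, 47.2 and 29.2 CPM with RU521 (-3.72 ± 0.51), and the highest library of the sham groups and untreated injured wild type had 3.48 CPM. Cartpt, a neuropeptide precursor, read 11.5, 11.9 and 11.8 CPM against 61.1, 67.7 and 63.5 CPM (-2.45 ± 0.23, adjusted p = 1.36e-05). Sham wild type had 31.7, 22.5 and 30.7 CPM of Cartpt and untreated injured wild type 17, 10.6 and 13.3 CPM, so the RU521 level was above both. Sst, the somatostatin gene of itch neurons, read 2.63, 1.87 and 3.97 CPM against 25.1, 12.7 and 17.8 CPM (-2.71 ± 0.41).

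Lypd1 read 1.44, 1.07 and 1.98 CPM in the knockout and 27.7, 8.01 and 17.9 CPM with RU521 (-3.57 ± 0.60), and the Wnt agonist gene Rspo4 1.19, 1.07 and 1.65 CPM against 8.56, 5.36 and 12.6 CPM (-2.75 ± 0.41). A3galt2, which makes a glycolipid, was lower at -2.42 ± 0.40, the chromatin remodeller gene Chd5 at -2.37 ± 0.35, and the transcription factor gene Grhl3 at -2.69 ± 0.30. Rnf39 and H2-M11 were lower at -3.03 ± 0.65 and -2.37 ± 0.41, and Rnf39 was at -3.81 without knockout library 2. Kcnf1, a potassium channel subunit, was lower at -2.85 ± 0.74. That value reached -4.16 without knockout library 3, and the call was lost without knockout library 1 (-2.48), knockout library 2 (-2.47), RU521 library 1 (-2.64) or RU521 library 3 (-2.69).

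Regeneration-associated genes were higher in the knockout in 15 of 26 tested cases, against 5.87% of all tested genes, and lower in none (median 1.07). Without RU521 library 3 the count was 10. Atf3, the transcription factor that leads the axotomy response, read 433, 454 and 399 CPM in the knockout, 64.8, 234 and 137 CPM with RU521 and 178, 377 and 321 CPM in untreated injured wild type. Sham libraries read 7.97, 9.34 and 6.36 CPM in wild type and 22.3, 29.3 and 29.1 CPM in the knockout. The RU521 libraries were thus above every sham library and below every injured knockout library (1.56 ± 0.35, adjusted p = 0.00867).

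Sprr1a, which promotes neurite growth, read 577, 638 and 599 CPM in the knockout and 108, 307 and 239 CPM with RU521 (1.47 ± 0.32). Sox11, a transcription factor needed for axon regrowth, read 130.2, 184 and 162 CPM against 43.2, 63.7 and 39.7 CPM (1.70 ± 0.27), and Gal, the galanin gene, 549, 689 and 523 CPM against 112, 257 and 149 CPM (1.76 ± 0.28). None of the 3 overlapped between the groups. For Sox11 the knockout also exceeded untreated injured wild type, at 42.2, 87.3 and 79.2 CPM (1.19 ± 0.27, adjusted p = 0.028).

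Arg1, the arginase whose polyamine products support axon growth and which macrophages also express, read 21.9, 32.1 and 35.1 CPM in the knockout and 1.31, 0.883 and 0.313 CPM with RU521 (5.13 ± 0.50, adjusted p = 1.55e-05). Arg1 was at most 3.03 CPM in any library of the other 4 groups. Gadd45a was higher by 1.70 ± 0.30, Gpr151 by 1.64 ± 0.34 and Klf6 by 0.69 ± 0.14. Gap43, the growth cone protein, was higher by 0.77 ± 0.18. Jun and Npy did not pass, at 0.60 ± 0.19 and 1.11 ± 0.37.

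**Figure D3:**
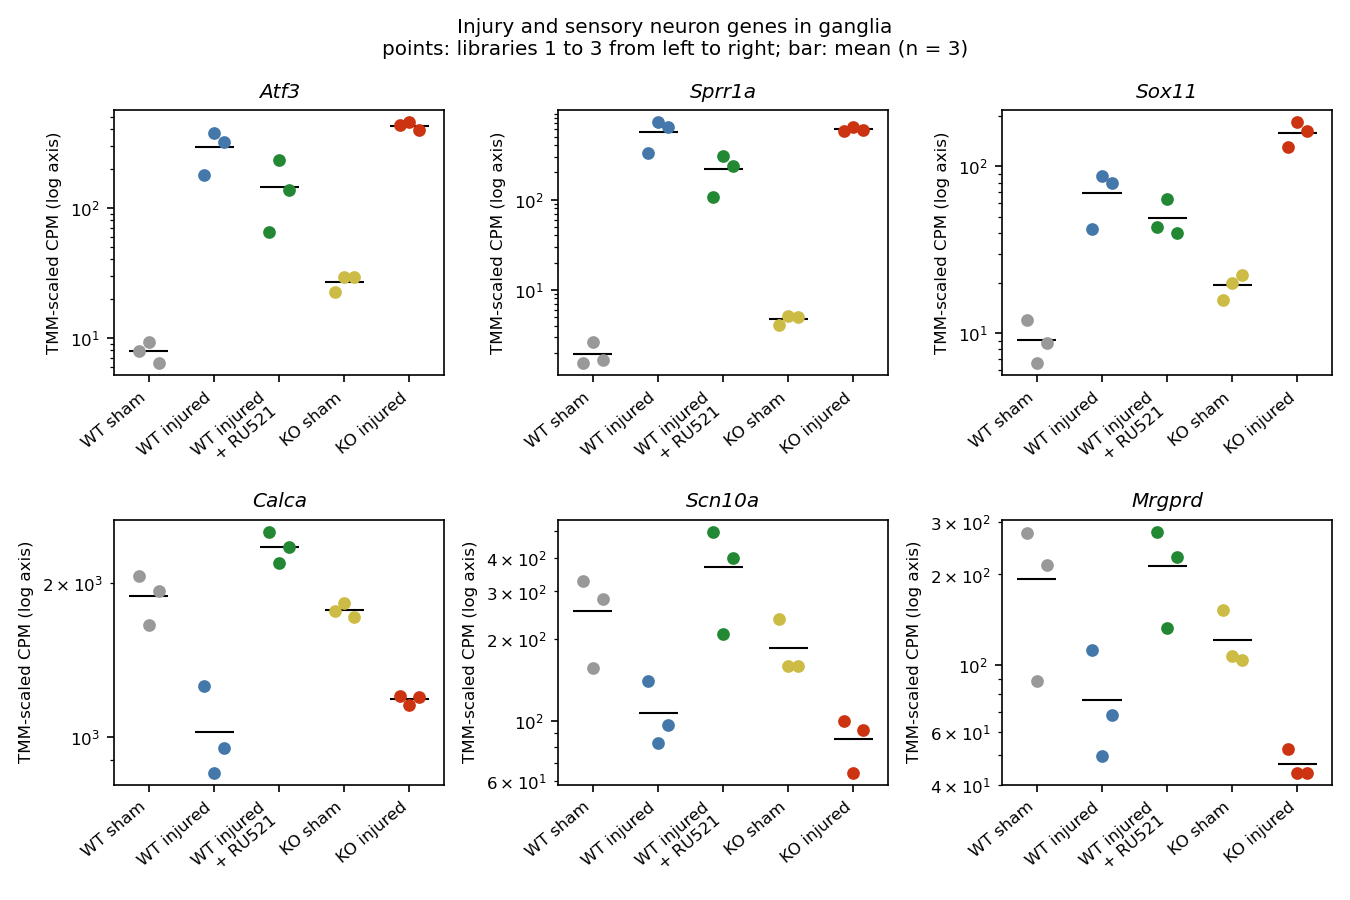
CPM on a log axis in each ganglion library for the injury genes Atf3, Sprr1a and Sox11 (upper row) and the sensory neuron genes Calca, Scn10a and Mrgprd (lower row), with bars at the group means. The RU521 libraries lie below the injured knockout in the upper row and above it in the lower row; Calca reads 2189 to 2517 CPM with RU521 and 1153 to 1202 CPM in the knockout.

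Immediate early genes, which mark recent stimulation or dissection, were higher in 3 of 11 cases (median 0.48), where 5.87% of all tested genes were. The count was 1 without knockout library 1, RU521 library 1 or RU521 library 3. Dusp1 read 99.9, 115 and 92 CPM in the knockout and 30.5, 64.4 and 43 CPM with RU521 (1.15 ± 0.23). Without RU521 library 2 the count was 6. Egr2 and Junb were called at 1.48 and 0.56, and without knockout library 1 stood at 1.38 and 0.43, not past the threshold. Egr2 also lost its call without knockout library 2 (1.47), RU521 library 1 (1.26) or RU521 library 3 (1.37), and Junb without knockout library 3 (0.56), RU521 library 1 (0.41) or RU521 library 3 (0.60). In the integrated stress response 1 of 14 genes was higher, a share close to the 5.87% over all tested genes. That gene was Ddit3, at 0.60 ± 0.19. Leaving out knockout library 1 (0.30), knockout library 2 (0.68), or RU521 library 1 (0.69), 2 (0.54) or 3 (0.55) removed its call.

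Of 10 satellite glia markers 2 were higher and 2 lower in the knockout, where 11.9% of all tested genes were called either way. Glul, the glutamine synthetase of satellite cells, read 84, 102 and 82.7 CPM against 44.4, 55 and 52.3 CPM with RU521 (0.82 ± 0.15), without overlap. Gfap, which satellite cells raise after nerve injury, read 41, 107 and 74.4 CPM against 8.68, 28.4 and 16.6 CPM (2.05 ± 0.48), and was not called without knockout library 2 (1.69), RU521 library 1 (1.71) or RU521 library 3 (2.00).
Hmgcs1, of cholesterol synthesis, and Kcnj10, the glial potassium channel, were lower at -0.51 ± 0.12 and -0.50 ± 0.15. Neither kept its call without knockout library 1 (-0.43 and -0.50), knockout library 2 (-0.51 and -0.51), RU521 library 1 (-0.48 and -0.52) or RU521 library 3 (-0.51 and -0.51), and Kcnj10 was not called without knockout library 3 (-0.51) or RU521 library 2 (-0.48) either.

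Among 10 myelinating Schwann cell markers 2 were higher, where 5.87% of all tested genes were. They were Mag at 0.92 ± 0.15 and Drp2 at 1.04 ± 0.22, and the myelin gene Mbp did not pass, at 0.20. The summed Schwann level was 10796 to 13553 CPM in the knockout, 8657 to 10553 CPM with RU521 and 22887 to 24712 CPM in untreated injured wild type. Both compared groups therefore lay below untreated injured wild type, in which all 10 markers were higher than with RU521 and 5 higher than in the knockout. Sham levels were 10732 to 16925 CPM in wild type and 11193 to 11708 CPM in the knockout, so untreated injured wild type stood above every other group.

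Endothelial and fibroblast markers were higher in 3 of 11 cases, where 5.87% of all tested genes were. The count was 1 without knockout library 1 or without RU521 library 1. Summed, these markers read 2180 to 2424 CPM in the knockout, 1459 to 1800 CPM with RU521 and 3423 to 3463 CPM in untreated injured wild type. Against untreated injured wild type, 3 of the 11 were lower in the knockout and 6 lower with RU521. Dcn, a matrix proteoglycan of fibroblasts, read 1381, 1626 and 1499 CPM in the knockout and 721, 856 and 729 CPM with RU521 (0.97 ± 0.22). Pdgfra and the endothelial gene Pecam1 were called at 1.09 and 1.04, and stood at 0.95 and 1.01 without knockout library 1 and at 0.92 and 0.97 without RU521 library 1, not past the threshold. Pecam1 was also not called without knockout library 2 (1.05).
Of 10 brown fat genes 2 were higher, against 5.87% of all tested genes: the thermogenic genes Ucp1 (2.52 ± 0.55) and Elovl3 (3.03 ± 0.87). Ucp1 read 9.83, 5.35 and 2.25 CPM in the injured knockout and 0.713, 1.01 and 1.31 CPM with RU521, while sham knockout had 43.1, 72.8 and 81.5 CPM. Without knockout library 1 Ucp1 was at 1.88 and Elovl3 at 2.96, neither past the threshold. Elovl3 also lost its call without knockout library 2 (3.02) or 3 (3.08) and without RU521 library 1 (2.70) or 3 (2.47), and stood at 4.82 without RU521 library 2. The part of tissue carried along at dissection was not tested.

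**Figure D4:**
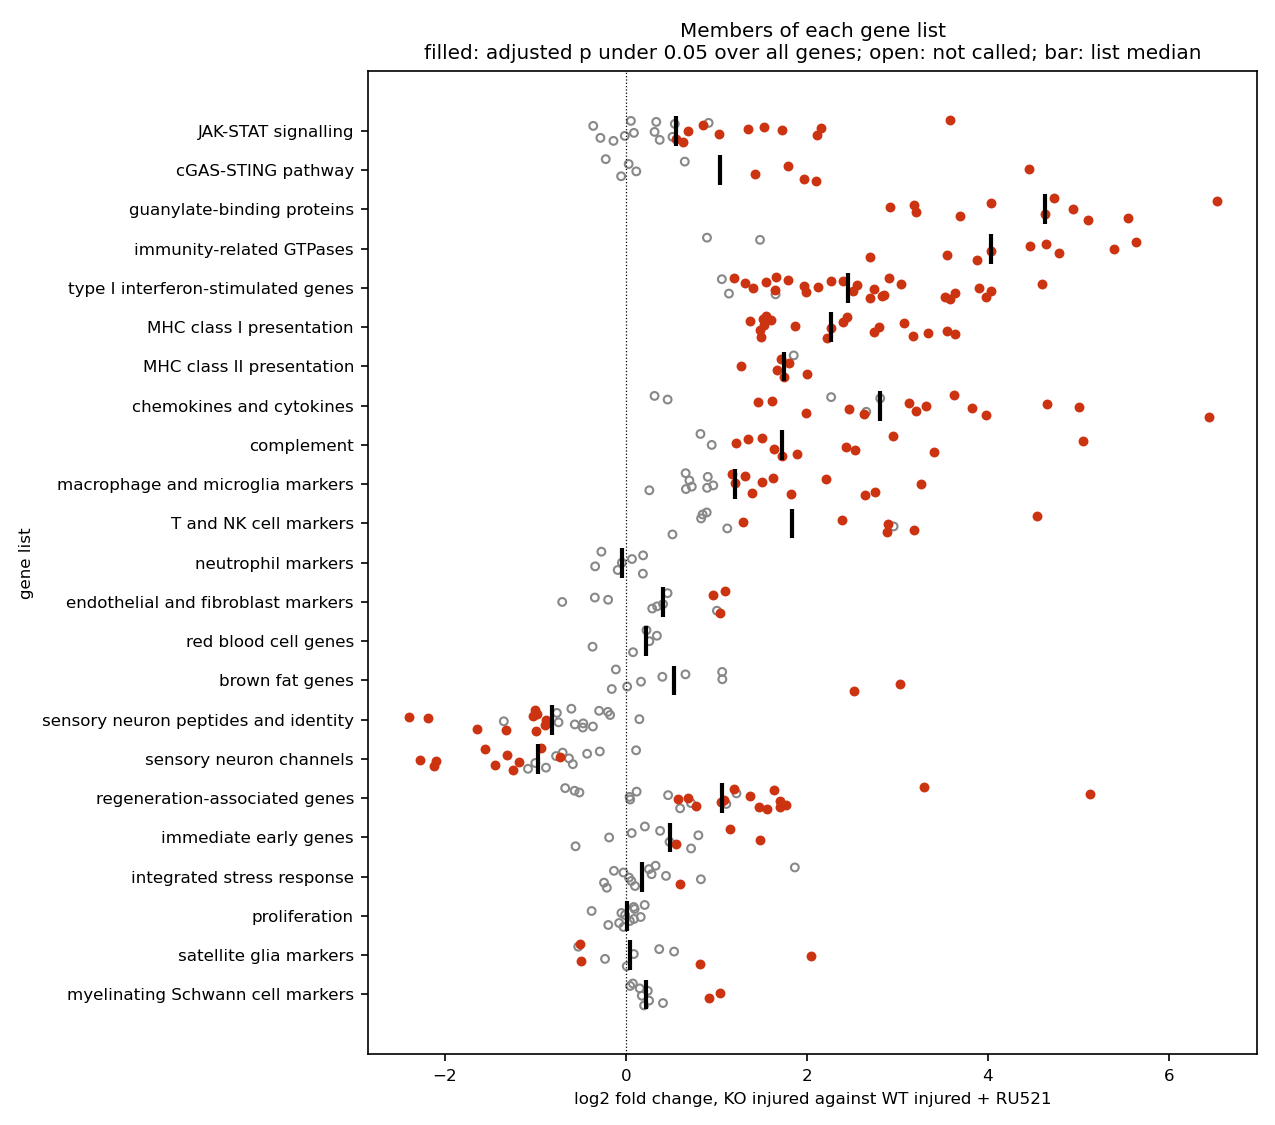
Log2 fold change of the injured knockout against RU521 for each tested member of the 23 gene lists, filled where called, with a bar at each list's median. Guanylate-binding proteins have the highest median (4.63) and sensory neuron channels the lowest (-0.97).

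Setting each group beside untreated injured wild type placed the 2 sides of the difference, with the caution that both of these comparisons use the same wild-type libraries and each shares its other group with the main comparison. Over all genes, the knockout differed from untreated injured wild type in 407 genes (2.2%), 257 higher (1.39%) and 150 lower (0.81%), and the RU521 group in 1774 (9.58%), 944 higher (5.1%) and 830 lower (4.48%). For guanylate-binding proteins the medians were 3.94 in the knockout and -0.68 with RU521. They were 3.58 and -0.64 for immunity-related GTPases, 2.17 and -0.09 for type I interferon-stimulated genes, and 1.89 and -0.26 for class I presentation. In these 4 lists 64 of 71 tested members were higher in the knockout than in untreated injured wild type, and 2 were lower with RU521.

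Neuronal lists had the opposite placement. Neuropeptide and identity genes had a median of 0.04 in the knockout and 0.79 with RU521, with 11 of 22 higher with RU521. Channel genes had medians of -0.23 and 0.74, with 9 of 20 higher with RU521. Regeneration-associated genes had medians of 0.40 in the knockout and -0.41 with RU521, with 2 of 26 higher in the knockout and 4 lower with RU521. Complement genes were at 0.79 and -1.05, with 3 of 13 higher and 4 lower. Class II genes had medians of 0.685 in the knockout and -0.94 with RU521, with 0 of 7 higher in the knockout and 2 lower with RU521. Chemokine and cytokine genes had medians of 1.82 and -0.81, with 9 of 19 higher in the knockout and 3 lower with RU521. Myelinating Schwann cell markers were below untreated injured wild type in both, at -0.85 and -1.26. In their summed level untreated injured wild type also stood above both sham groups. Its summed red blood cell level was 10704 to 10773 CPM, against 1186 to 7191 CPM over the other ganglion groups. The part of tissue make-up in the comparisons with this reference was not tested. Leaving out 1 wild-type injured library moved the number of RU521 calls to 1117 without library 1, 476 without library 2 and 590 without library 3. Those counts were 691 without RU521 library 1, 2727 without RU521 library 2 and 828 without RU521 library 3. For the knockout against untreated injured wild type the counts were 194 and 235 without knockout library 1 or 2, and 208, 199 and 197 without wild-type library 1, 2 or 3.

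**Figure D5:**
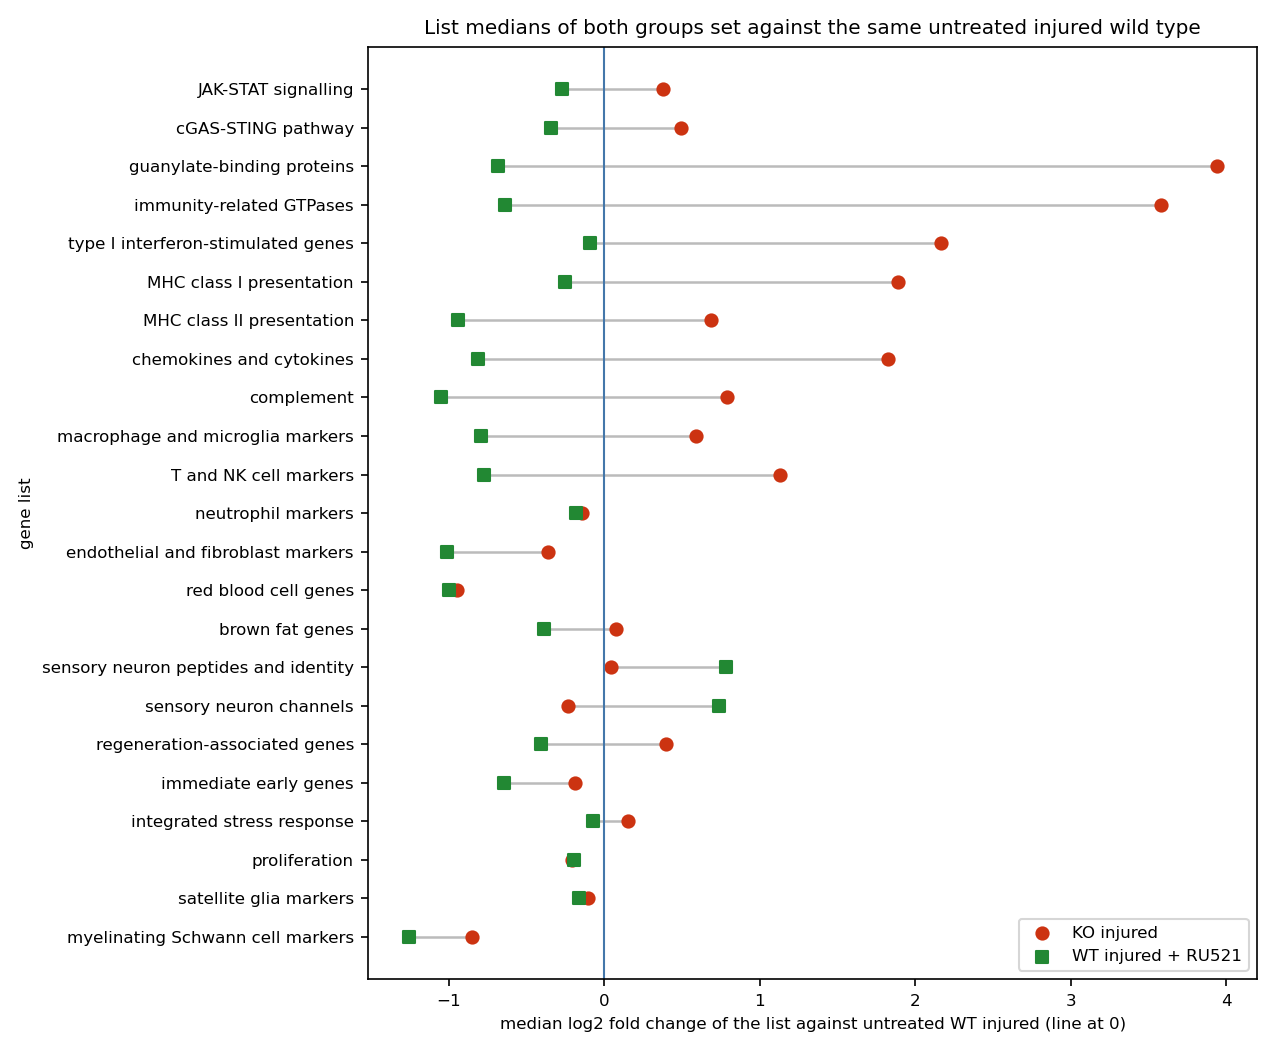
Median log2 fold change of each gene list in the injured knockout (circles) and with RU521 (squares), each against the same untreated injured wild-type libraries, which define 0. Circles lie far right of 0 for the interferon lists (3.94 for guanylate-binding proteins) with squares between -0.68 and -0.09, while for the 2 sensory neuron lists the squares lie right of 0 (0.79 and 0.74).

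Gene by gene, the mean of untreated injured wild type was nearer to the knockout than to RU521 in 583 of the 1087 genes higher in the knockout and in 916 of the 1111 genes lower in it, against 11003 of all 18517 tested. It was nearer to RU521 in all 11 guanylate-binding protein genes and all 19 class I genes. In 17 of 22 neuropeptide and identity genes and 14 of 20 channel genes it was nearer to the knockout.

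A comparison of 6 other libraries, injured against sham wild type, which shared only the estimate of spread with the main one, called 3070 of 18517 genes (16.6%). That number was 1615, 6513 and 1240 without sham library 1, 2 or 3, and 1307 and 1394 without injured library 2 or 3. Of the 1087 genes higher in the knockout than with RU521, 401 (36.9%) rose with injury in wild type, where 8.6% of all tested genes rose, and 3 fell. Of the 1111 genes lower, 582 (52.4%) fell with injury, where 7.98% of all tested genes fell, and 4 rose. These counts moved with the method and with the wild-type libraries. They were 246 and 376 when each fit held only the 2 groups compared, and 758 and 946 with limma-voom. They were 636 and 781 without sham library 2, 224 and 337 without sham library 1, 207 and 266 without sham library 3, 216 and 246 without injured library 2, and 245 and 258 without injured library 3. Atf3 and Calca, for example, gave 5.21 ± 0.41 and -0.88 ± 0.15 with injury in wild type.

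Genotype without injury was compared in the sham libraries, also outside the 6. It gave 25 called genes (0.135%), 20 higher (0.108%) and 5 lower (0.027%) in the knockout, 10 of them higher in the knockout among the 1087 and 3 lower among the 1111. None of the tested members of the guanylate-binding protein, immunity-related GTPase, type I interferon-stimulated and class I lists passed the edgeR test there, with 3 of 11, 2 of 11, 5 of 30 and 2 of 19 at an unadjusted p under 0.05. Their medians were 0.28, 0.45, 0.27 and 0.30, against -0.035 over all genes tested. At the same unadjusted p there were 5 of 12 proliferation genes, 5 of 10 satellite glia genes and 0 of 20 sensory neuron channel genes. The share of all tested genes at that p was not counted, so the list counts cannot be read against it. Gbp2 stood at 0.39 ± 0.22 in that comparison. The sham knockout libraries had Gbp2 at 26.9, 39.8 and 35.6 CPM. The part of sex in the difference between the injured groups was not tested. Sham wild-type library 2 stands apart from the other 2, and without it the comparison called 974 genes. It called 4 without sham wild-type library 3, 60 without sham knockout library 1, and 2 without sham knockout library 2 or 3.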

How the data were processed

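RNA-seq libraries of mouse dorsal root ganglia were analysed from 1 table of read counts per gene. Per the file headers and the submitters' processing notes, the authors trimmed reads with Trim Galore, aligned them with STAR to GRCm38 and deposited raw counts from featureCounts 2.0.1 (Ensembl release 101, exons summed by gene name, primary alignments, mapping quality of at least 10, no strand). No version of Trim Galore or STAR is given in the sources used here. Counts per gene name mix paralogs where reads match several copies.

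All 15 ganglion libraries entered 1 fit in edgeR 4.0.16 (R 4.3.3) with TMM scaling, a low-count filter (minimum count 10, minimum total 15) and quasi-likelihood tests with Benjamini-Hochberg adjustment over 18517 of 55367 genes. Called means an adjusted p under 0.05. Fold changes use a prior count of 0.125. CPM values use the TMM library sizes. In simulated data of 18517 genes, 67, 67 and 66 genes were changed by a log2 fold change of 1, 2 and 4. The compared groups were otherwise set equal, and no single library was shifted. The fit recovered 34.3%, 73.1% and 90.9% of the changed genes, and 7.69% of its calls were false. The real comparison had 2198 calls and libraries that stood apart, so these shares need not hold for it. No libraries held identical values. Replicate numbers were not treated as pairs in the main fit. After subtracting group means, same-numbered libraries of the compared groups correlated at -0.105, 0.006 and -0.007, and differently numbered ones at -0.101 to 0.103. With 3 libraries a group these values cannot decide whether the numbers pair samples.

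The comparison, the 23 gene lists and the rules were chosen with earlier results of these data known. Named genes were those given with the comparison, the 12 largest called changes each way among genes with a group mean of at least 5 CPM, and up to 6 per list; other list members were named after their values were seen, and a few results are not reported here. Promoter windows came from RefSeq (GRCm38.p6). The 12 other libraries of the series were not used. Alternatives with limma 3.58.1 and DESeq2 1.42.0, other scaling, filters and designs, and leaving out each library are given in the closing section.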

Additional observations from a re-analysis of the deposited data

How the results depend on the processing

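Against 1087 higher and 1111 lower genes, limma-voom with sample quality weights called 2989 and 2742, DESeq2 1401 and 1553, DESeq2 size factors in edgeR 1045 and 1127, no low-count filter 1245 and 1467, and the 2 groups alone 1019 and 965. The 3 injured groups alone called 1678 and 1498, and a covariate for detected genes, chosen after seeing the data, 1736 and 1600. The replicate number as a block gave 1269 and 1320. Leaving out 1 library gave 577 to 1341 higher and 462 to 1755 lower.

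For knockout against untreated injured wild type (407 calls) the count was 711 without the filter, 721 with DESeq2, 2101 with limma-voom, 1877 with the 2 groups alone and 194 to 293 without 1 library. RU521 against untreated injured wild type (1774) gave 2767 with DESeq2, 6175 with limma-voom and 476 to 2727 without 1 library. Sham knockout against sham wild type (25) gave 596 without the filter, 248 with DESeq2, 3021 with limma-voom, 2 with the 2 groups alone, 71 with the replicate block and 2 to 974 without 1 library. Injury in wild type (3070) gave 9264 with limma-voom, 1702 with the 2 groups alone and 1240 to 6513 without 1 library. The cause of these shifts was not tested.

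Of 118 called named genes, 95 kept their call in each of the 14 settings that tested them. With the 2 groups alone, not every named gene was tested. In at least 1 setting 23 lost their call, and none reversed. Most named genes were picked for a large change or a small p, so this share does not stand for all calls. Of all 2198 calls, 58.6%, 50.5% and 60.8% were kept without knockout library 1, 2 or 3. Without RU521 library 1, 2 or 3 the shares were 47.4%, 92.8% and 51.8%. Some genes near 0, none of them called, changed sign. Hbb-bs was at -0.027 with limma-voom, -0.073 with the detected genes covariate and -0.18 to 0.30 without 1 library. Rrm2 was at 0.18 with limma-voom, 0.14 with the replicate block and -0.36 to 0.56 without 1 library. S100a9 was at 0.033 with the replicate block and -0.43 to 0.19 without 1 library, and S100a8 at -0.14 to 0.61. List counts that moved by over 1.5 times and are not given above were, with limma-voom, endothelial and fibroblast 5, immediate early 6, stress response 3, satellite glia 4 higher and Schwann 5. With the 2 groups alone, brown fat and immediate early genes gave 1 each and the stress response 0, as it did with DESeq2 size factors. The block gave 5 immediate early genes. The injured groups alone and the detected genes covariate each gave endothelial and fibroblast 5 and stress response 3. Without the filter, and with the injured groups alone, 1 satellite glia gene was lower. On simulated data with few changed genes and 3 libraries a group, changes of 2-fold were often missed, which need not hold for these data.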

Other observations

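Gene families were also counted by symbol, leaving out members of the lists above. They were chosen after their values were seen, and over all tested genes 5.87% were higher and 6% lower in the knockout. In the HIN-200 family, whose members bind DNA and form inflammasomes or act in the nucleus, 9 of 12 tested genes were higher in the knockout and none lower (median log2 fold change 2.49). Ifi204 read 106, 45.8 and 41.6 CPM in the knockout, 4.46, 10.5 and 5.25 CPM with RU521 and 8.48, 8.38 and 9.15 CPM in untreated injured wild type. Caspases were higher in 6 of 9 cases, among them Casp4, the sensor of intracellular lipopolysaccharide, at 2.34 ± 0.39, Casp12 at 1.31 ± 0.18 and Casp1, the inflammasome protease, at 0.95 ± 0.18. Mlkl, the pore former of necroptosis, read 30.1, 20.1 and 19 CPM against 2.32, 6.43 and 4.63 CPM (2.37 ± 0.38). Cd274, the gene for the T cell checkpoint ligand PD-L1, read 122, 89.3 and 76 CPM in the knockout, 8.85, 9.21 and 8.95 CPM with RU521 and 6.23, 7.77 and 7.35 CPM in untreated injured wild type (3.41 ± 0.24). All 3 tested serum amyloid A genes were higher, from 4.46 to 6.56. Timp1, an inhibitor of matrix proteases, read 95.2, 90.3 and 70.6 CPM against 4.4, 4.29 and 4.69 CPM (4.26 ± 0.64).

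Of 14 constitutive 20S proteasome subunits 2 were higher, Psmb2 at 0.48 ± 0.13 and Psma3 at 0.37 ± 0.11 (median of the 14, 0.16), beside the immunoproteasome subunit Psmb8 in the class I list. Cytosolic ribosomal protein genes had 1 of 79 higher, and collagen genes 2 of 40, a share close to that over all genes.

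Of potassium channel genes outside the lists, 25 of 75 were lower in the knockout and 1 higher (median -0.82). Sodium channel genes outside the lists were lower in 4 of 9 cases, and Mas-related receptor genes, which mark itch and nonpeptidergic neurons, in 5 of 13. Kcnd3, an A-type potassium channel, read 12.5, 12.1 and 12.2 CPM in the knockout, 87.5, 32.7 and 43 CPM with RU521 and 15, 11.2 and 11.8 CPM in untreated injured wild type. Sncg, an abundant sensory neuron synuclein, read 1380.0, 1269.6 and 1331 CPM in the knockout and 3049, 2032 and 2582 CPM with RU521 (-0.94 ± 0.15). RU521 library 1 was the highest in both genes.

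Scube1 differed from Gbp2 and Irf1 in where untreated injured wild type stood. It read 22, 24.7 and 25.5 CPM in the knockout, 5.05, 6.24 and 3.82 CPM with RU521 and 23.4, 25.7 and 24.1 CPM in untreated injured wild type, so the RU521 libraries stood apart from the 6 others. Spp1, the osteopontin gene, was graded over the 3 injured groups, with 749, 982 and 858 CPM in the knockout, 579, 648 and 626 CPM in untreated injured wild type and 295, 313 and 274 CPM with RU521.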
